A study of Arabidopsis thaliana with 8 samples.

Results

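The URI protein (bHLH121) of Arabidopsis thaliana is a DNA-binding regulator of the response to Fe deficiency, of the basic helix-loop-helix (bHLH) family. The peaks described here are those of its ChIP-seq profile that lie far from protein-coding genes. A peak belonged to this set when its midpoint was more than 1000 bp from every protein-coding gene on the 5 nuclear chromosomes, which held for 519 of the 2366 peaks in the authors' deposited table (21.9%). Binding was compared in roots of a uri complementation line, in which the mutant carries a restored URI, between 3 URI ChIP libraries from Fe-deficient roots and 3 from Fe-sufficient roots after 72 h. An IgG control library accompanied each Fe condition, and no value of these controls is used here. The sources used here give no promoter or tag for the restored URI, no number of lines and no plant age. They do not state separate plantings for the 3 libraries either, so p-values may measure technical spread. Library depth is unknown, and the table holds 1 mean per Fe condition and peak. In whole roots, binding in fewer cells and weaker binding per cell cannot be told apart.

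URI acts with other bHLH proteins of its family to switch on the genes of Fe acquisition when Fe is short. Factors of this family bind short E-box and G-box sequences, most often in the promoters next to genes. In the compact Arabidopsis genome, sequence far from genes comes in 2 forms. Some of it lies in wide gaps between genes on the chromosome arms. The rest lies around the centromeres, where transposons and satellite repeats replace genes and the chromatin is mostly silent.

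Values below are concentrations, read as log2 of normalised reads per peak averaged over libraries, or those reads themselves. A change is the log2 concentration under Fe deficiency minus that under sufficiency, so the sign of the deposited fold was turned. Calls use the false discovery rate (FDR) of the authors' deposited table at a threshold of 0.05. That FDR was adjusted over 1311 peaks and set to 1 for the 1055 others, whose mean concentration was at most 3.52 (11.5 reads). Of the distant peaks, 314 were among those adjusted and 205 were not. The table gives no spread between libraries, so the error of a change is the standard error implied by its deposited p-value under a normal approximation, given for changes of at least 0.2.

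The first question was how much of the distant sequence URI occupied. Between the first and the last gene of each chromosome, 25.5% of all bases lay more than 1000 bp from a protein-coding gene (30.4 Mb), and this space held 21.9% of the peaks. That is 17.1 peaks per Mb in distant sequence, against 57.1 per Mb outside genes within 1000 bp of one (1387 peaks) and 7.13 per Mb inside genes (460 peaks). Most distant peaks were only just distant. Their median distance to the nearest gene was 1634 bp, 221 of the 519 lay between 1000 and 1500 bp away, and 14 lay beyond 5000 bp. At the threshold itself, the distant peaks nearest to it were 1002, 1003 and 1006 bp from AT4G32480, AT5G12010 and AT3G27390, where the authors' deposited table gave concentrations of 3.35, 3.30 and 2.78. The peaks just short of it were 999, 997 and 995 bp from AT5G01390, WRKY6 and PRR5, where the authors' deposited table gave concentrations of 3.56, 3.75 and 5.04.

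Distant peaks were spread over all chromosomes. They made up 20.2% of the peaks on chromosome 1 (125 of 618), 25.4% on chromosome 2 (90 of 354), 20.6% on chromosome 3 (97 of 471), 22.7% on chromosome 4 (84 of 370) and 22.2% on chromosome 5 (123 of 553). Per Mb of distant sequence the densities ranged from 15.4 on chromosome 2 to 19.4 on chromosome 5. Median changes ran from -0.56 on chromosomes 2 and 4 to -0.44 on chromosome 5.

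Along each chromosome, distant peaks lay almost entirely on the gene-rich arms. A gene-poor zone was drawn on every chromosome as the 500 kb bin with fewest protein-coding gene starts and its neighbours holding under 50% of the median bin. It stands in for the neighbourhood of the centromere, since no centromere position is in the files. The zones covered 4, 2.5, 4, 2.5 and 4 Mb on chromosomes 1 to 5 and held 45.7% of all distant sequence. Only 14 of the 519 distant peaks (2.70%) fell in them, which is 1.01 per Mb of distant sequence, against 30.6 per Mb for the 505 distant peaks outside the zones. Of the 2 other kinds of peak, the zones held 4 of 1387 near genes and 5 of 460 inside genes. Little of their sequence lay there, namely 5.73% of that near genes and 2.71% of that inside genes. Peaks near genes numbered 2.87 per Mb in the zones and 60.4 per Mb outside them. Peaks inside genes differed less, with 2.86 per Mb in the zones and 7.25 per Mb outside. No source used here says how reads from repeated sequence were mapped, and the part of mapping in the low density of zone peaks was not tested.

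**Figure D1:**
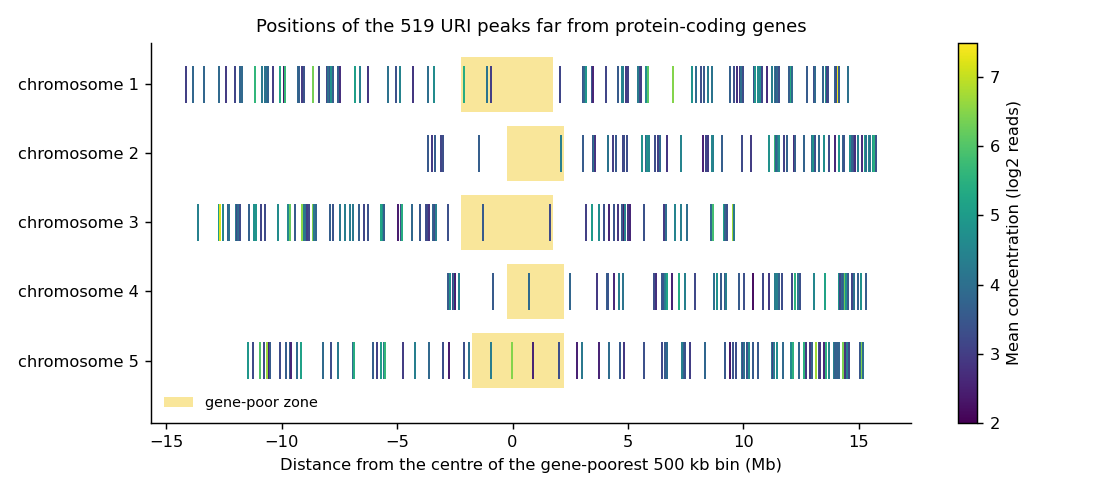
Each line is 1 of the 519 distant peaks, placed by its distance in Mb from the centre of the gene-poorest 500 kb bin of its chromosome and coloured by mean concentration (log2 reads), with the gene-poor zone shaded. The arms carry 505 of the peaks and the zones 14.

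The share of gaps between genes that held a distant peak differed with gap size. A distant peak needs a gap of more than 2000 bp between genes, and 6538 such gaps exist in the annotation, of which 444 (6.79%) held at least 1 distant peak. The share was 2.26% for gaps of 2000 to 3000 bp, 8.56% for 3000 to 5000 bp, 11.1% for 5000 to 10000 bp and 10.2% for 10000 to 20000 bp. It was 2.19% for the 274 gaps above 20000 bp (6 with a peak). The shares are descriptive, since a narrow gap leaves little room for a midpoint this far from both ends.

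Some distant peaks shared a gap between genes, with 130 of the 519 (25.05%) in 55 gaps that held 2 or more. Grouped instead by midpoints at most 10 kb apart, whether or not a gene lay between, 172 of the 519 (33.1%) fell into 74 groups of 2 or more. Of these groups 49 lay within 1 gap and 25 ran over several gaps, and 3 groups held 5 peaks. One group of 5 lay in the gap of 11945 bp between GATL3, which encodes a galacturonosyltransferase-like protein, and RAV1, a transcription factor gene (chromosome 1, 4532666 to 4541337). All 5 of its peaks were of similar strength (14.6 to 19.4 reads) and were lower under deficiency by -0.95 to -0.59 in the authors' deposited table. Another lay between AT1G13360 and AT1G13370 on the same chromosome arm (4579907 to 4587007), with changes of -1.26 to -0.51 in the authors' deposited table. The last lay between CYP707A3, which encodes an abscisic acid hydroxylase, and AT5G45350 (chromosome 5, 18371751 to 18380710), with changes of -1.05 to -0.44 in the authors' deposited table. No peak of these 3 groups passed the FDR, whose lowest values in the authors' deposited table were 0.223, 0.184 and 0.247. In the groups at AT1G13360 and CYP707A3 some peaks were not among those adjusted and could not pass.

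Within a group, peaks mostly leaned the same way. Every peak was lower under deficiency in 54 of the 74 groups and every peak higher in 5, while 15 groups mixed both signs. Of all 519 distant peaks, 426 (82.1%) were lower in the authors' deposited table. Whether neighbours shared a sign more often than this share alone would give was not tested. A contrast between neighbours was seen beside NIA2, which encodes a nitrate reductase, in the gene-poor zone of chromosome 1. The peak at 14164709 to 14166020 had 41.1 reads under deficiency and 19.97 under sufficiency in the authors' deposited table (change 1.04 with an implied standard error of 0.377, p = 0.00586, FDR 0.14). The next peak, at 14166105 to 14167001 in the same gap, had 17.1 reads under deficiency and 16.9 under sufficiency in the authors' deposited table (change 0.02, p = 0.956). The difference between these 2 changes was not tested.

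The second question was how strong and how wide distant peaks were. In the authors' deposited table their median concentration was 3.71 (13.1 reads), against 3.65 (12.6 reads) near genes and 3.38 (10.4 reads) inside genes. Their middle 50% ran from 3.25 to 4.36, that of peaks near genes from 3.20 to 4.17 and that of peaks inside genes from 3.03 to 3.86, so the 3 kinds of peak overlapped widely. Median widths were 785 bp for distant peaks, 749 bp near genes and 664 bp inside genes. Reads per kb were much alike, with medians of 17.0, 16.7 and 16.3. Concentration followed width closely across the distant peaks (Spearman rank correlation of 0.91, n = 519), as it did across all peaks (0.90, n = 2366). These points share the same libraries and a wider peak collects more reads.

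**Figure D2:**
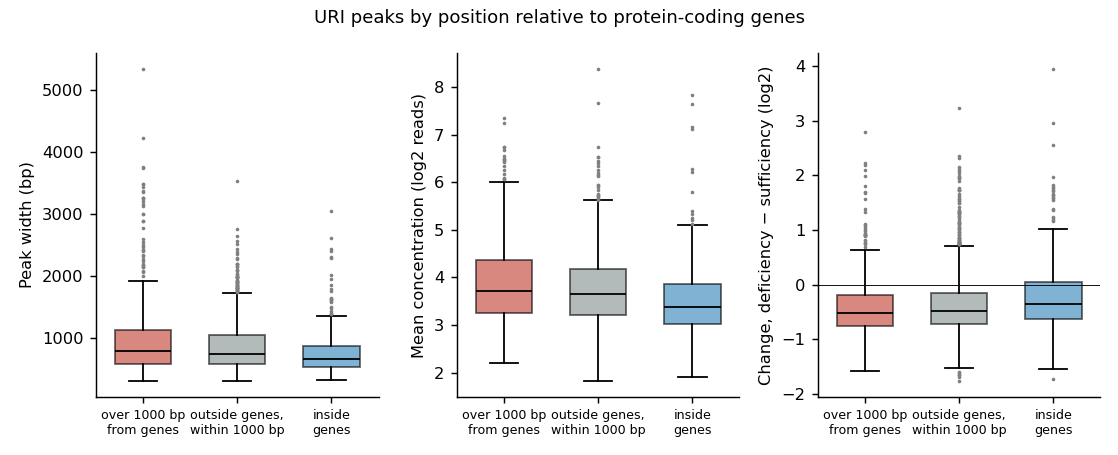
Box plots of peak width (bp), mean concentration (log2 reads) and change (log2, Fe deficiency minus sufficiency) for the 519 distant peaks, the 1387 outside genes within 1000 bp and the 460 inside genes. Boxes show the quartiles with the median line, whiskers reach 1.5 times the box height and points lie beyond; medians differ little while the widest peaks are distant ones.

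The upper end differed more than the middle. Of the 65 peaks wider than 2000 bp, 38 were distant, 20 near genes and 7 inside genes. These are 7.32% of the distant peaks, 1.44% of those near genes and 1.52% of those inside genes. Of the 35 peaks with a concentration above 6, 17 were distant, 12 near genes and 6 inside genes in the authors' deposited table. The rule places a peak by its midpoint, however, and a wide peak beside a gene has its midpoint far out. Of the 38 wide distant peaks, 20 overlapped a protein-coding gene with an edge, 13 had an edge within 1000 bp of one, and 5 stood clear of genes by more than 1000 bp. Of all 519 distant peaks, 310 were clear of genes by more than 1000 bp from their nearest edge. Those 310 had a median width of 698 bp and a median concentration of 3.56, against 739 bp and 3.61 for the other 2056 peaks of the table. Of the 17 distant peaks with a concentration above 6 in the authors' deposited table, 13 overlapped a protein-coding gene with an edge.

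The peak of highest concentration lay in the gap between AT1G78070 and RAP2.4, a gene for an AP2/ERF transcription factor (chromosome 1, 29359010 to 29362501), with 176 reads under deficiency and 151 under sufficiency in the authors' deposited table. It overlapped AT1G78070 with its edge. The peak beside NAC047, a NAC transcription factor gene (chromosome 3, 1063267 to 1066699), had 131 reads under deficiency and 171 under sufficiency in the authors' deposited table and ended 33 bp from the gene. At the widest peak of the whole table, 5342 bp across beside AT5G61997 (chromosome 5, 24903442 to 24908784), the authors' deposited table gave 92.4 reads under deficiency and 121 under sufficiency. None of these 3 changes passed the FDR (0.622, 0.446 and 0.382 in the authors' deposited table).

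GID1B encodes a gibberellin receptor, and its peak had 101 reads under deficiency and 111 under sufficiency in the authors' deposited table. RSH2 encodes a plastid enzyme that makes the alarmone ppGpp, with 107 reads under deficiency and 80.4 under sufficiency in the authors' deposited table. The peak nearest to AT1G60160 (chromosome 1, 22184138 to 22186064) stood clear of genes by 1966 bp and had 86.2 reads under deficiency and 92.4 under sufficiency in the authors' deposited table. None of these 3 changes passed the FDR either (0.711, 0.393 and 0.795 in the authors' deposited table).

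ERF4, which encodes a repressor of ethylene-responsive genes, had 72.0 reads under deficiency and 104.7 under sufficiency in the authors' deposited table (change -0.54 with an implied standard error of 0.251, FDR 0.251). LBD37, a repressor gene of nitrate responses, had 77.7 reads under deficiency and 97.0 under sufficiency in the authors' deposited table (FDR 0.432). Both peaks overlapped their gene with an edge. Of the 10 strongest distant peaks 7 overlapped a gene in this way, and 2 stood clear of genes by over 1000 bp, namely that near AT1G60160 and a peak in the gene-poor zone of chromosome 5.

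**Figure D3:**
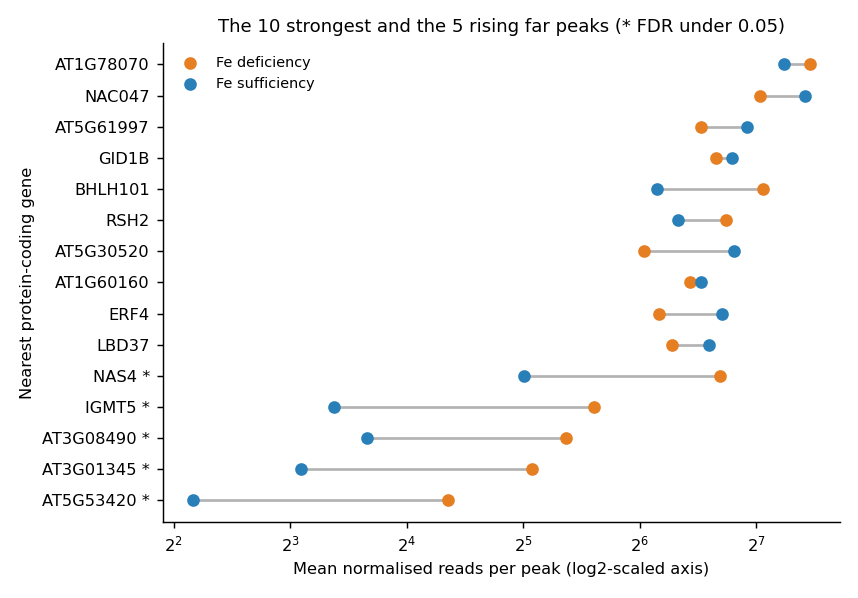
Mean normalised reads per peak (log2-scaled axis) under Fe deficiency and Fe sufficiency for the 10 strongest distant peaks and the 5 that rose, named by the nearest protein-coding gene; asterisks mark a deposited FDR under 0.05. The paired points lie close together at the strongest peaks, with the widest spacing among them at BHLH101, while the rising peaks are separated by 3.20-fold to 4.69-fold.

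The third question was how binding at distant peaks differed between the Fe conditions. URI signal was higher under deficiency at 5 distant peaks and lower at 0 by the FDR of the authors' deposited table. The 5 are 1.59% of the 314 distant peaks adjusted, near the background of 26 of 1311 peaks over the whole table (1.98%). Lower calls made up 0.0763% of the whole table, which is 1 peak. At an unadjusted p under 0.05, the authors' deposited table had 16 distant peaks higher and 73 lower. These are 3.08% and 14.1% of the 519, against 3.55% and 10.1% of all 2366 peaks. Peaks near genes had 9.59% lower at that level and peaks inside genes 6.96%.

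The rising peak with the most reads lay 2818 bp from NAS4, which encodes a nicotianamine synthase that makes a chelator of Fe. It had 103 reads under deficiency and 32.2 under sufficiency in the authors' deposited table, a change of 1.68 with an implied standard error of 0.287 (chromosome 1, 21133195 to 21134839, FDR 7.58e-07). NAS4 was the nearer of the flanking genes, with AT1G56423 at 3078 bp on the other side. Distance alone does not assign such a peak to either neighbour, and expression was not analysed here.

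The peak named for IGMT5, an indole glucosinolate methyltransferase gene, lay 2259 bp from it and 3257 bp from AT1G76800 (VTL2), which encodes a vacuolar Fe transporter-like protein. It had 48.8 reads under deficiency and 10.4 under sufficiency in the authors' deposited table, a change of 2.23 with an implied standard error of 0.380 (chromosome 1, 28825482 to 28826490, FDR 7.58e-07). A further rising peak lay 1621 bp from AT3G08490 and 2519 bp from FRD3, which encodes a citrate exporter that keeps Fe mobile in the xylem. Its reads were 41.4 under deficiency and 12.6 under sufficiency in the authors' deposited table, a change of 1.70 with an implied standard error of 0.360 (chromosome 3, 2571729 to 2572709, FDR 0.000233). Over all 519 distant peaks, 9 (1.73%) had a gene of a list of 55 Fe homeostasis genes on either side, all 9 of them adjusted. Of these 9, 3 were called higher by the FDR, against 2 of the 510 others, 305 of which were adjusted. The 6 flanked peaks not called were those of MYB72, bHLH101, AHA2, VTL1, BTS and YSL3, with changes of -1.0 to 2.79 in the authors' deposited table. The Fe list was chosen with earlier results of these data known, so this count is a description only.

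The other rising peaks lay between genes with no place on the Fe list. Beside AT3G01345 (chromosome 3, 131228 to 132490) the authors' deposited table gave 33.8 reads under deficiency and 8.51 under sufficiency, a change of 1.99 with an implied standard error of 0.451 (FDR 0.000708). Beside AT5G53420 (chromosome 5, 21670436 to 21671336) it was 20.5 reads under deficiency and 4.5 under sufficiency in the authors' deposited table, a change of 2.19 with an implied standard error of 0.615 (FDR 0.0194). A further distant peak with AT5G53420 as nearest gene (21671588 to 21672416) had a change of 0.11 in the authors' deposited table (p = 0.834). That peak was not adjusted, and the difference between these changes was not tested. The nearest edge of the rising peak beside AT3G01345 was 479 bp from that gene, and the other 4 rising peaks stood clear of genes by over 1000 bp.

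**Figure D4:**
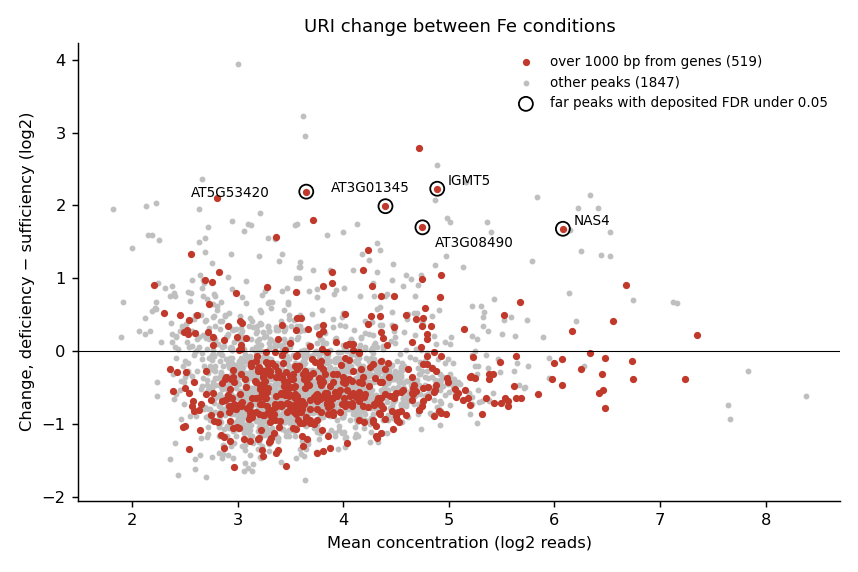
Change (log2, Fe deficiency minus sufficiency) against mean concentration (log2 reads) for the 519 distant peaks and the 1847 other peaks, with the 5 distant peaks of a deposited FDR under 0.05 ringed and named. Most distant peaks lie below 0, with a median of -0.53, and the ringed ones lie between 1.68 and 2.23.

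Below the threshold, the largest change of a distant peak was that of MYB72, which encodes a MYB transcription factor needed for coumarin secretion. Its peak had 46.2 reads under deficiency and 6.68 under sufficiency in the authors' deposited table, a change of 2.79 with an implied standard error of 0.886 (FDR 0.0689). The peak of bHLH101, a partner of the Fe regulator FIT, overlapped the gene with an edge, and its midpoint lay 1139 bp away. It had 133 reads under deficiency and 71.0 under sufficiency in the authors' deposited table (change 0.91 with an implied standard error of 0.302, FDR 0.0923). Near WRKY12 the authors' deposited table gave 20.3 reads under deficiency and 5.86 under sufficiency (change 1.80, FDR 0.0829). A weak peak near GRF8 had 11.3 reads under deficiency and 2.64 under sufficiency in the authors' deposited table (change 2.10, p = 0.0101) and was not among those adjusted.

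Of the 55 Fe homeostasis genes listed, 6 had a distant peak within 3000 bp and 37 had any peak within that window. The 6 were bHLH101, MYB72, NAS4, FRD3, YSL3 and VTL1, and for YSL3 and VTL1 another peak lay nearer. A distant peak had an Fe gene as its nearest gene in 4 cases, namely NAS4, MYB72, bHLH101 and AHA2, which encodes a proton pump and is labelled HA2 in the annotation. The peak 4923 bp from AHA2 had 8.75 reads under deficiency and 17.5 under sufficiency in the authors' deposited table (change -1.0, p = 0.0421, FDR 0.268), opposite in sign to the other 3.

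Most distant peaks had lower values under deficiency, and none of them passed the FDR. Their median change was -0.53, against -0.46 over all peaks, -0.48 near genes and -0.35 inside genes in the authors' deposited table. Lower values were found at 82.1% of distant peaks and 79.8% of all peaks. The lowest changes at an unadjusted p under 0.05 in the authors' deposited table were near AT1G55690 (-1.59), ERF-1, an ethylene response factor gene (-1.58), CYP72A14 (-1.44), AT1G29160 and AT1G13605 (both -1.40). Reads at these 5 were between 3.92 and 7.36 under deficiency and between 11.8 and 19.6 under sufficiency in the authors' deposited table. Their concentrations were at most 3.75, only that near AT1G13605 was adjusted (FDR 0.107), and none passed.

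Strong peaks of the 3 kinds had different medians. With a concentration above 5 in the authors' deposited table, the median change was -0.39 over 50 distant peaks, -0.17 over 69 near genes and 0.54 over 15 inside genes. The shares lower under deficiency were 84%, 58.0% and 40%, in the same order. Between concentrations of 3.5 and 5 the order of these shares for distant peaks and those near genes was the other way round. The shares were 70.9% against 83.6% between 4.5 and 5, with distant peaks first in each pair. They were 78.7% against 84.5% between 4 and 4.5, and 87.0% against 89.6% between 3.5 and 4. Further down, distant peaks were again more often lower, at 90.6% against 85.1% between 3 and 3.5, and 70.3% against 62.9% up to 3. Median changes of distant peaks were lower than those near genes in every one of these ranges. Between concentrations of 3 and 3.5, medians in the authors' deposited table were -0.59 for distant peaks, -0.55 near genes and -0.45 inside genes. These differences between kinds of peak are given without a test.

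A shift of -0.46 ran through the whole table, so changes were also set relative to the median peak. The median of the distant peaks was then -0.07. On this scale 14 distant peaks were higher at an FDR under 0.05 (4.46% of 314) and 0 lower, against 63 of all 1311 (4.81%) and 0 (0%). The 5 rising peaks were joined by those of bHLH101, NIA2, WRKY12, HB-2, WRKY59, MYB72, AT1G49790, AT4G17440 and GMII. HB-2 encodes a homeodomain factor of shade responses. The peak meant here, 5275 bp out in a gap next to AT4G16770, had 27.1 reads under deficiency and 10.3 under sufficiency in the authors' deposited table. Another distant peak with HB-2 as nearest gene (chromosome 4, 9445779 to 9446440) was weak, with a concentration of 2.77. Its change was 0.09 in the authors' deposited table (p = 0.966), and it was not adjusted. Near WRKY59 the authors' deposited table gave 35.8 reads under deficiency and 18.0 under sufficiency. Relative changes were 1.85 for the stronger HB-2 peak (FDR 0.00541) and 1.45 for WRKY59 (FDR 0.0063).

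The fourth question concerned non-coding neighbours. A gene that does not code for protein, pseudogenes included, lay within 1000 bp of the midpoint of 101 distant peaks (19.5%), against 16.2% of all peaks, 16.9% of those near genes and 10.4% of those inside genes. The midpoint lay inside such a gene at 31 distant peaks (5.97%), against 3.63% of all peaks. How much of the distant sequence lies in or near such genes is not given here, so these shares are a description only. Long non-coding RNA genes were the most frequent neighbours, at 67 distant peaks (12.9%, against 11.2% of all peaks). They were followed by miscellaneous RNA genes at 13, pseudogenes at 6, transcribed pseudogenes at 5, other non-coding RNA genes at 5, microRNA genes at 3 and small nuclear RNA genes at 2. No distant peak had a tRNA gene as its nearest non-coding gene within 1000 bp, against 27 of all peaks, 25 of which lay near protein-coding genes.

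Peaks with and without such a neighbour had similar medians. The median concentration was 3.68 for the 101 peaks and 3.73 for the 418 others, and the median change was -0.48 and -0.55 in the authors' deposited table. Of the 5 rising peaks, that near AT3G01345 had a long non-coding RNA gene, AT3G00995, at 967 bp, and the other 4 had none within 1000 bp.

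Among microRNA genes, which give rise to short RNAs that silence matching transcripts, MIR164c lay 308 bp from a peak midpoint on chromosome 5 (9851647 to 9853086). miR164 limits transcripts of NAC genes. That peak had 15.9 reads under deficiency and 17.1 under sufficiency in the authors' deposited table (change -0.12, FDR 0.806). The peak 501 bp from MIR414 had 12.0 reads under deficiency and 19.8 under sufficiency in the authors' deposited table (change -0.72 with an implied standard error of 0.424, FDR 0.339). Near MIR779 a weak peak had 6.68 reads under deficiency and 4.96 under sufficiency in the authors' deposited table (p = 0.678).

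TAS3 gives rise to trans-acting small RNAs against auxin response factors, and the peak 183 bp from it, with SCPL33 as the nearest coding gene (chromosome 3, 5860978 to 5861638), had 10.9 reads under deficiency and 13.5 under sufficiency in the authors' deposited table (FDR 0.615). Of the 39 small RNA and non-coding RNA genes listed for nutrient and stress responses, 0 had a distant peak within 1000 bp and 1 had one within 3000 bp. Neither MIR164c nor TAS3 was on that list, so the count of 0 does not cover the peaks beside them. The gene within 3000 bp was MIR172B, at 1616 bp from a peak with a change of 0.26 in the authors' deposited table.

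Strong peaks with a long non-coding RNA gene close by included those beside AT5G61997 (AT5G09035, 297 bp), JAZ1 (AT1G05473, 169 bp) and BRG3 (AT3G02615, 934 bp). JAZ1 encodes a repressor of jasmonate signalling and BRG3 a RING-type protein. JAZ1 had 79.9 reads under deficiency and 81.6 under sufficiency in the authors' deposited table (change -0.03, FDR 0.921). The BRG3 peak had 78.2 reads under deficiency and 65.3 under sufficiency in the authors' deposited table (FDR 0.537). MUTE encodes a bHLH factor of stomatal development, and the peak beside it lay on the non-coding RNA gene AT3G06125. It had 10.5 reads under deficiency and 19.3 under sufficiency in the authors' deposited table (change -0.88 with an implied standard error of 0.427, FDR 0.268). Near AT3G25790, with AT3G25795 at 935 bp, the authors' deposited table gave 13.7 reads under deficiency and 20.4 under sufficiency (FDR 0.396).

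Pseudogenes lay 591 bp from the peak of BT5, 933 bp from that of HAT1 and 957 bp from that of AT5G47229, with changes of -0.50, -0.32 and -0.35 in the authors' deposited table. Transcribed pseudogenes lay 815 bp from the peak of KAS III, 894 bp from that of AT2G13900 and 831 bp from that of WRKY59. Changes at these 3 were -0.61, -0.13 and 0.99 in the authors' deposited table. Miscellaneous RNA genes lay 256 bp from the strongest peak beside AT1G78070, 455 bp from that of ERF4 and 862 bp from that of AT1G13370, the last with a change of -0.62 in the authors' deposited table. None of these 9 peaks beside pseudogenes or miscellaneous RNA genes passed the FDR.

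Small nuclear RNA genes of the U1 and U2 type lay 302 and 155 bp from 2 weak peaks, near AT4G16650 and MYB96, with changes of -1.25 (p = 0.0207) and -1.18 (p = 0.0717) in the authors' deposited table, neither of which was adjusted.

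Some peaks of the gene-poor zones had a large error for their read count. The 4 distant peaks farthest from any gene were on chromosome 5 at 11731487 to 11732530 (95370 bp from AT5G30520) and on chromosome 4 at 3977466 to 3977951, 3954942 to 3955365 and 3954021 to 3954338 (53271, 30716 and 29742 bp from AT4G06688). Their nearest annotated non-coding neighbours were pseudogenes, 2029 to 11141 bp away. The next farthest, 14246 bp from AT5G33370 (chromosome 5, 12618886 to 12619271), lay inside the pseudogene AT5G33382 and was weak, with 6.23 reads under deficiency and 5.31 under sufficiency in the authors' deposited table (p = 0.747). The peak on chromosome 5 had 65.8 reads under deficiency and 112 under sufficiency in the authors' deposited table, with p = 0.661, which corresponds to an implied standard error of 1.78 (log2). Peaks of like concentration outside the zones had a median implied error of 0.322 and at most 0.537.

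The 3 peaks on chromosome 4 had implied errors of similar size. At 3954021 to 3954338 the authors' deposited table gave 27.1 reads under deficiency and 36.3 under sufficiency, with an implied error of 1.72. For the peak at 3954942 to 3955365 it gave 24.8 reads under deficiency and 34.3 under sufficiency in the authors' deposited table, with an implied error of 1.97. The peak at 3977466 to 3977951 had 12.2 reads under deficiency and 17.0 under sufficiency in the authors' deposited table, with an implied error of 1.60. All 4 were lower under deficiency by -0.78 to -0.43 in the authors' deposited table, with p-values of 0.661 to 0.811.

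Of 1153 peaks with a concentration above 3.5 and a change of at least 0.2, 6 had an implied error above 1.5. All 6 lay in the gene-poor zones, 4 of them distant and 2 inside annotated genes, AT1G40104 on chromosome 1 (24.1 reads under deficiency, 40.2 under sufficiency) and AT2G08986 on chromosome 2 (13.4 under deficiency, 17.9 under sufficiency, all from the authors' deposited table). The largest implied error of the remaining peaks at that concentration was 1.06, and 0.886 among distant ones. The 4 distant peaks also held more reads for their width, from 30.1 to 100.2 reads per kb, against medians of 17.6 to 22.7 in peaks of like concentration. The peak on chromosome 5, with 85.6 reads per kb, stayed below the maximum of 123.1 among its peaks of like concentration. The 3 on chromosome 4 exceeded their maxima, which were 27.2 to 29.7, though that at 3977466 to 3977951 only slightly (30.1 against 27.2). The peak at 3954021 to 3954338 had rank 3 of all 2366 peaks in reads per kb. Values per library, which would show the spread behind these errors, were not analysed here.

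**Figure D5:**
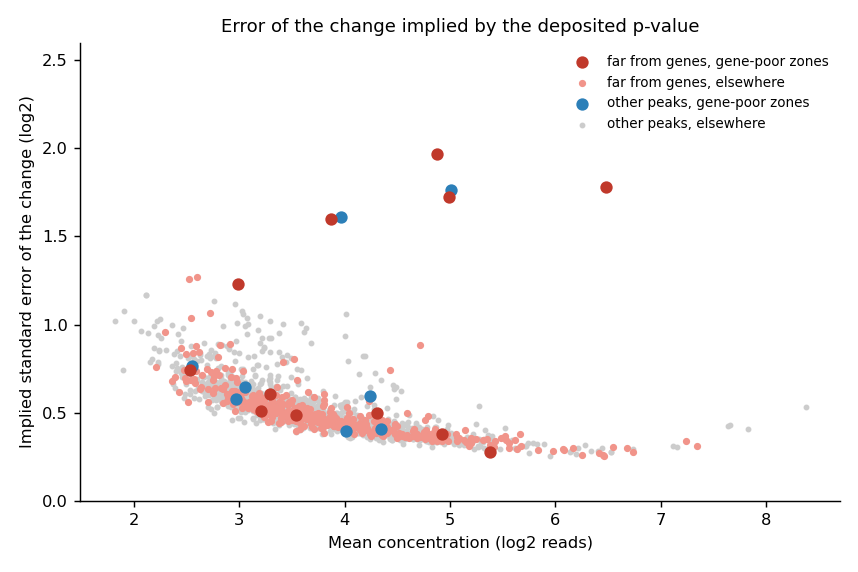
Implied standard error of the change (log2) against mean concentration (log2 reads) for all peaks with a change of at least 0.2, split by distance from genes and by gene-poor zone. The error falls with concentration for nearly all peaks, and 6 peaks of the gene-poor zones above a concentration of 3.5 stand apart at 1.60 to 1.97.

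Of the other 10 distant peaks in the zones, 8 had an implied error, with a median of 0.504 and a range of 0.279 to 1.23. The highest of these was at a weak peak near AT1G38131, with 8.51 reads under deficiency and 7.41 under sufficiency in the authors' deposited table (p = 0.871). Its change was 0.2, the smallest for which an error is given. Deposited p-values were not symmetric around a change of 0, with 0.988 at 0.07 near XRCC2 and 0.797 at -0.07 near EDA12. Implied errors of small positive changes may therefore be too large, and the 1.23 need not mean a larger spread. Over all zone members with an error the median was 0.674, against 0.476 for distant peaks outside the zones. The peak near AT1G35610 (chromosome 1, 13140321 to 13141786) had 37.0 reads under deficiency and 46.5 under sufficiency in the authors' deposited table, with an implied error of 0.279. The nitrate reductase peak near NIA2, given above, had 0.377. No zone peak passed the FDR, with 10 of the 14 distant ones adjusted. Without the 14, the median change of distant peaks was -0.54, the median concentration 3.69 and the rising count still 5.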

How the data were processed

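URI ChIP-seq of roots was summarised by the authors in 1 deposited table of 2366 peaks. The submitters' processing notes name the TAIR10 build, DiffBind, MACS2, Bowtie 1.2.2, Trimmomatic 0.33, Picard 2.4.1, bedtools 2.26.0 and SAMtools 1.3.1. Settings, normalisation and the way peaks were called (per library or pooled) are not given there. The deposited concentrations and fold were read as log2 values: the mean concentration equals the log2 of the mean of both conditions within 0.0093, and the fold equals sufficiency minus deficiency within 0.01. The deposited p-value and FDR are the authors', and recomputing the FDR by Benjamini-Hochberg over 1311 peaks gave the same values within 0.489%. No per-library values exist in the table, so no model was fitted and no test of lists or kinds of peak was made.

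Distances were taken from peak midpoints (start plus end, over 2, rounded down) to 27444 protein-coding and 10455 other genes of an NCBI RefSeq table (TAIR10.1), used for names and neighbourhood only. Whether deposited starts count from 0 or 1 is not given. Width is end minus start. The named peaks were those called, the 10 strongest, the 5 largest rises and falls at p under 0.05, the 5 farthest from genes, the 5 strongest in gene-poor zones, those next to the threshold, those nearest to an Fe list gene, and those by non-coding type (each microRNA and up to 3 of each other type). NIA2's neighbour, AT1G38131, the groups of peaks, the peaks with an Fe list gene on either side, HB-2, WRKY12, GMII, AT1G49790, AT4G17440 and the peaks inside genes in the zones were chosen after their values were seen. So were the further peaks near AT5G53420 and HB-2. The members and lists were chosen with earlier results of these data known. For the values relative to the median peak, changes under 0.2 took the median implied error of the 101 peaks nearest in concentration. Nearest-gene distances and the recentring were tested on simulated data. For the recentring, simulated p-values followed the same normal approximation, so the check covers the code and not its fit to the deposited p-values. Python 3.11.15 with SciPy 1.17.1 was used.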

Additional observations from a re-analysis of the deposited data

How the results depend on the processing

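The table gives no library depth or per-library value, so no replicate could be left out, and weak peaks (under 11.5 reads) carry no adjusted FDR. No paired analysis was possible because the table holds no value per library. With a cut of 500 bp there were 905 peaks with 8 higher, and with 2000 bp 177 peaks with 3 higher, 15.8% near a non-coding gene and 6.21% in gene-poor zones. Measured from the nearest edge, 310 peaks had a median concentration of 3.56 and a width of 698 bp. The 314 adjusted peaks had a median of 4.195 and 1019 bp. At an FDR of 0.1 there were 8 higher, and relative to the median peak 14, with a median change of -0.07, because recentring moves every change up by 0.46. Windows of 500 and 3000 bp gave 11.4% and 38.5% near a non-coding gene, and 11.0% of peaks overlapped one. All other alternatives, including those without the gene-poor zones (added after the data were seen), stayed within the 95% interval of the median or share, or within 1.5 times the count. These intervals treat peaks as independent, although peaks share the same libraries, and the alternatives largely reuse the same peaks. Staying within them is a description only.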

Other observations

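Several strong distant peaks lay beside genes of nitrogen signalling. Besides LBD37 and NIA2, peaks lay near LBD39, a repressor gene of nitrate responses (69.6 reads under deficiency, 82.7 under sufficiency in the authors' deposited table, FDR 0.51), TGA1, a bZIP factor gene (69.1 reads under deficiency, 102.5 under sufficiency in the authors' deposited table, FDR 0.266), and NRT1.1, the nitrate transporter and sensor gene. The NRT1.1 peak (chromosome 1, 4101268 to 4103823) is 1 of the 5 wide distant peaks clear of genes by over 1000 bp, with 41.1 reads under deficiency and 57.3 under sufficiency in the authors' deposited table (FDR 0.382). The peak of HRS1, a nitrate- and phosphate-responsive repressor gene, overlapped the gene with an edge. It had 36.3 reads under deficiency and 47.2 under sufficiency in the authors' deposited table (FDR 0.425). These genes were picked after their values were seen, and no test of the theme was made.

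A pair of related RING-type genes, BRG2 and BRG3, were the nearest genes to 3 distant peaks with a concentration above 6. The BRG2 peak had 56.5 reads under deficiency and 77.7 under sufficiency in the authors' deposited table, and the other BRG3 peak 64.9 under deficiency and 70.0 under sufficiency. A second distant peak beside NAC047 (chromosome 3, 1057853 to 1059370) had 22.2 reads under deficiency and 40.5 under sufficiency in the authors' deposited table (change -0.87, p = 0.0226, FDR 0.237).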
